A study of Arabidopsis thaliana with 15 samples.

Results

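The effect of light on the polysome association of messenger RNA was followed in etiolated Arabidopsis seedlings. Each gene has an interaction value, which is the log2 light effect (L4h over Dark) in polysome-bound RNA minus the log2 light effect in total RNA. A positive value means that the ratio of polysome-bound to total RNA, the polysome association, was higher in L4h than in Dark. It was fitted for 21924 of the 33323 listed genes, with 12 of the 15 libraries of the series.

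The 12 libraries are wild-type Columbia-0, from the aerial part of seedlings stratified for 4 days and grown for 4 days in darkness at 22 °C. WT_L4h_PL is polysome-bound RNA and WT_L4h total RNA after 4 h more in white light at 100 µmol photons per square metre and second. WT_Dark_PL and WT_Dark are the polysome-bound and total RNA of seedlings taken at the end of the dark growth. Each group has 3 libraries numbered 1 to 3, with 60.8 M to 100.9 M reads in listed genes. The other 3 libraries are total RNA after 4 h of further darkness and were not used, since no polysome-bound libraries of that condition are among those analysed. Light and the 4 h of elapsed time therefore cannot be told apart here, and light effect stands for L4h against Dark throughout. Nothing in the labels says that the numbers mark separate cultures, so the tests measure the spread between these libraries, which may be technical. The description of the series speaks of 2 replicates whereas the sample labels number 3 in each group, and the labels were followed. How polysomes were isolated is not given in the sources used here.

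Ribosomes that translate 1 messenger RNA together form a polysome, and RNA that sediments with polysomes is taken as a measure of translation, separately from the amount of the transcript. When an etiolated seedling is first lit, the nucleus sends out transcripts for photosystems, carbon fixation, pigment synthesis and plastid ribosomes, while growth genes of the dark programme are shut down. In Arabidopsis, this greening step is known to bring with it a rise of translation of many transcripts. Because each library is scaled to its own reads, a rise or fall of polysome loading shared by all transcripts is not measured here. A value shows only which genes gained or lost relative to the others.

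Many genes differed between L4h and Dark in both polysome-bound and total RNA. Against Dark, the polysome-bound RNA of L4h held more of 2052 genes and less of 1534 (9.36% and 7.0% of the genes tested), at a Benjamini-Hochberg adjusted p under 0.05 in edgeR's quasi-likelihood test. In total RNA, 2346 rose and 1707 fell (10.7% and 7.79%). Of the genes that rose, 1752 rose in both, which is 85.4% of the polysome-bound list and 74.7% of the total list. Of those that fell, 1259 fell in both, 82.1% and 73.8% of these lists. In bulk samples, fewer cells of a type and less RNA per cell cannot be told apart. No gene was called in opposite directions among the 4628 called in either kind of RNA. Across genes the light effects of both kinds of RNA correlated with Pearson's r of 0.9 and Spearman's rho of 0.89, a description over genes, which are not independent. With the replicate number as a block, 3459 genes rose and 2671 fell in polysome-bound RNA, and 3541 rose and 3052 fell in total RNA.

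**Figure D1:**
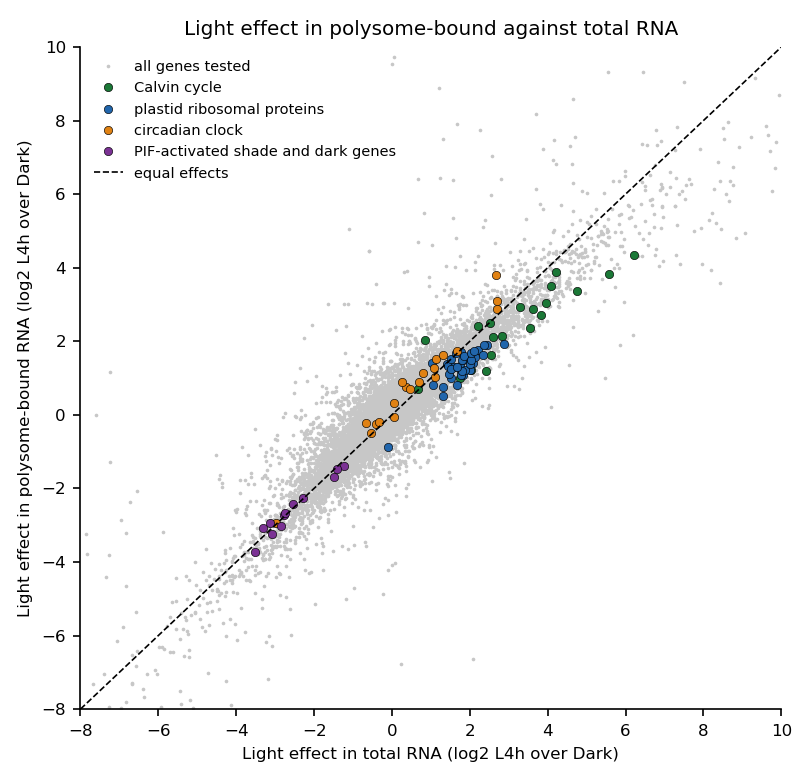
The light effect in polysome-bound RNA (vertical axis, log2 L4h over Dark) is plotted against that in total RNA (horizontal axis, log2 L4h over Dark), 1 grey point for each of the 21924 genes tested, of which 21 fall outside the axes. Genes of 4 lists are coloured. Most points follow the dashed line of equal effects, and genes of the Calvin cycle lie mostly below it.

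No single gene passed the test of the interaction. Of 21924 genes, 0 were called higher and 0 lower (0.0% each), and the smallest adjusted p was 1.0 after rounding. At an unadjusted p under 0.05 there were 75 genes with a higher and 40 with a lower interaction (0.342% and 0.182%). These 115 genes became 380 without WT_L4h_PL replicate 1, 384 without all libraries numbered 1, and 55 and 50 without those numbered 2 and 3. When no gene differs, an exact test gives a share near 0.05 at this threshold. The 115 were 0.525% of genes, so the main test was conservative. It had no block, so differences between replicate numbers that L4h and Dark shared entered its SE. The share was 1.4% with the replicate block and 0.935% with the block within condition. With a block within kind of RNA, chosen after seeing the data, it was 5.33%, near that of an exact test when no gene differs. Why the share was small in the main test was not tested. DESeq2 called 2 genes higher and 1 lower, and every way of blocking the replicate number called 0. Quartiles lay at -0.17 and 0.21, with a median of 0.02, and 94.8% lay between -1 and 1. The median standard error (SE) was 0.47, and 0.39 for the 13763 genes that averaged at least 10 CPM (reads scaled by the effective library size) in a group. A missed threshold with such errors does not show that light left a gene's association as it was.

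The 12 libraries give 3 separate values of the interaction, 1 for each replicate number, because each number has a library in all 4 groups. The 3 values shared little. Across genes, Spearman's rho was 0.11 between numbers 1 and 2, 0.04 between 1 and 3 and 0.17 between 2 and 3. Among genes of at least 10 CPM it was 0.2, 0.07 and 0.27. The spread over those genes was 0.59, 0.48 and 0.67 (SD, log2) in numbers 1, 2 and 3. The interaction was above 0 in all 3 numbers for 3837 genes (17.5%) and below 0 in all 3 for 3242 genes (14.8%), together 32.3% of genes. It reached at least 1 in all 3 numbers for 55 genes (0.251%) and -1 or less for 29 genes (0.132%).

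Replicate 1 stood apart in polysome-bound RNA, and most of all in genes of photosynthesis. Summed over 20 Calvin cycle genes, WT_L4h_PL held 88100, 21500 and 17700 CPM in numbers 1, 2 and 3, and WT_Dark_PL held 18200, 3020 and 3460 CPM. The same genes summed to 26300, 14000 and 20500 CPM in WT_L4h and to 3560, 2060 and 1690 CPM in WT_Dark. In both conditions the polysome-bound library numbered 1 lay far above the others and the pair moved together. In the total RNA of WT_Dark, number 1 was also the highest for light-harvesting antenna proteins, with 3630, 1300 and 712 CPM. Photosystem and electron transport subunits held 3270, 1230 and 957 CPM there. In WT_L4h these lists held 27400, 15600 and 28900 CPM, and 19200, 11400 and 17600 CPM. Same-numbered libraries of L4h and Dark deviated together from their group means, with correlations of 0.7, 0.57 and 0.64 in polysome-bound RNA and 0.6, 0.39 and 0.41 in total RNA for numbers 1, 2 and 3. Values are therefore given by number. A single library left out breaks such a pair, and of the 28 named lists described next, 24 had medians of both signs when single libraries were left out.

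**Figure D2:**
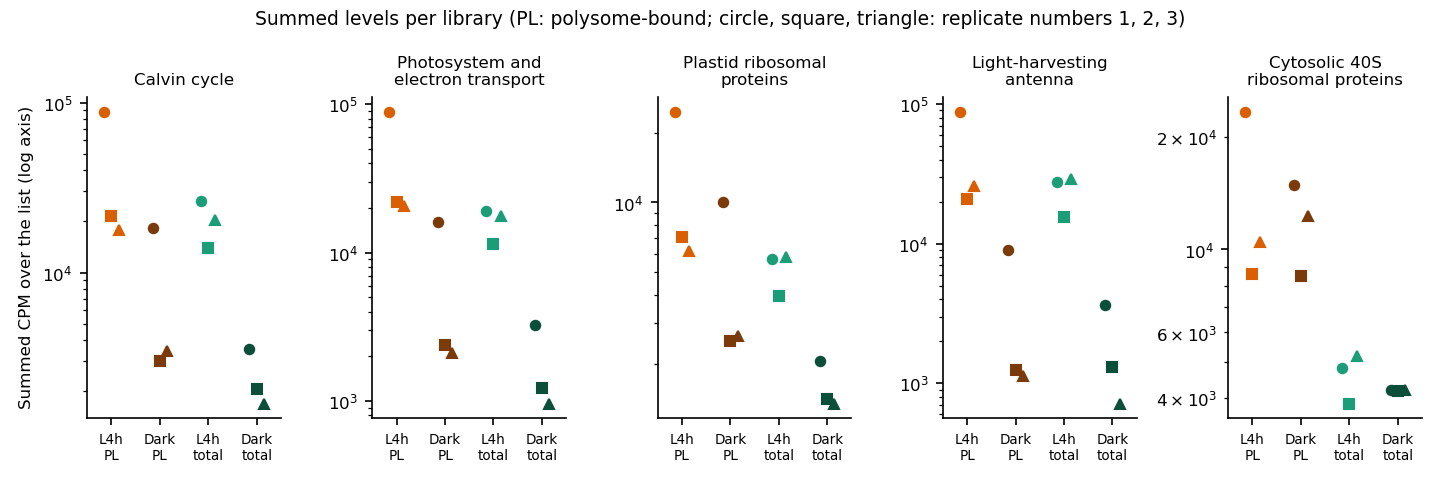
Summed CPM over 5 gene lists is plotted on log axes for each of the 12 libraries, with groups from left to right as WT_L4h_PL, WT_Dark_PL, WT_L4h and WT_Dark and a marker shape for each replicate number. The polysome-bound libraries numbered 1 (circles) are the highest of their groups in all 5 panels, with 88100 CPM (WT_L4h_PL) and 18200 CPM (WT_Dark_PL) for the Calvin cycle.

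Functional groups were described with 28 lists of named genes and 34 families read from the annotation. None of the 62 holds a called gene, so they are described by medians and, in part, by counts of members with 1 sign in all 3 numbers. Over all genes, 17.5% were above 0 and 14.8% below 0 in all 3 numbers. Medians of the named lists ran from -0.75 (Calvin cycle) to 0.96 (root markers, at very low levels) and those of the families from -0.15 to 0.2, around a median of 0.02 over all genes. The median was below 0 in every number for 10 of the 28 lists and above 0 for 3, and for 5 and 8 of the 34 families. Lists are taken up by what their members do, and those with low medians were picked out after their values were seen.

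**Figure D3:**
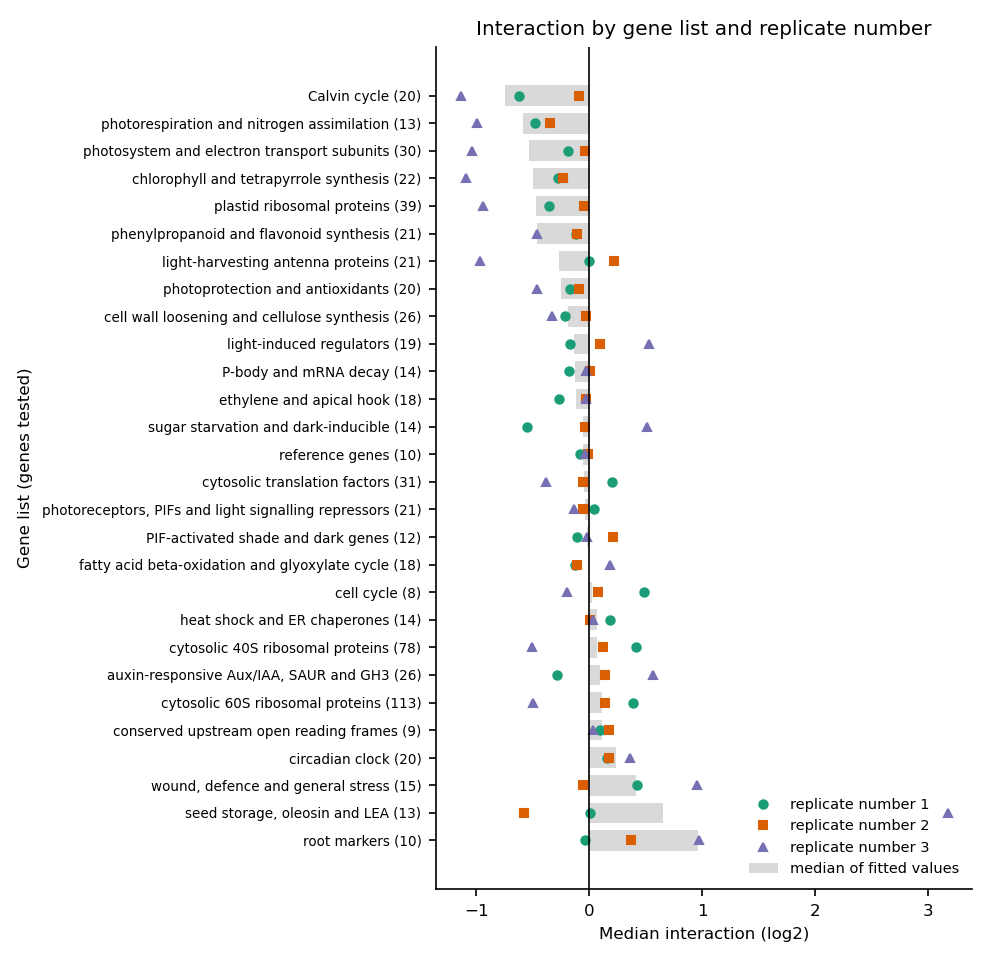
The median interaction (log2, horizontal axis) of 28 gene lists is shown as a bar for the fitted values and as 3 markers for the replicate numbers, with the number of genes tested in brackets. The lists at the top are those of the plastid and of photosynthesis, where number 3 lies near -1 and number 2 near 0 in most. The ribosomal protein lists of the cytosol have number 3 on the other side of 0 from numbers 1 and 2.

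Carbon fixation had the lowest median of the named lists. The Calvin cycle list holds the Rubisco small subunits, Rubisco activase and the enzymes that regenerate the acceptor of carbon dioxide. Its 20 genes had a median interaction of -0.75, with -0.62, -0.09 and -1.14 in numbers 1, 2 and 3. All but 3 of the fitted values were below 0, 11 genes were below 0 in all 3 numbers and 1 was above. Transcripts of the list were still far more abundant after light in both kinds of RNA. In polysome-bound RNA 12 of the 20 rose (against 9.36% of all genes), with a median light effect of 2.45. In total RNA 17 rose (against 10.7%), with a median of 3.06. With the replicate number as a block, 19 and 20 of them rose, against 15.8% and 16.2% of all genes. Polysome-bound over total RNA stood at a median of 0.35 in L4h and 1.0 in Dark on the log2 scale.

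RBCS1A encodes a small subunit of Rubisco, the enzyme that fixes carbon dioxide. It had 26300, 5690 and 4530 CPM in WT_L4h_PL and 6430, 835 and 1070 CPM in WT_Dark_PL in numbers 1, 2 and 3. In total RNA it had 4800, 2430 and 3490 CPM in WT_L4h and 731, 453 and 336 CPM in WT_Dark. L4h and Dark did not overlap in total RNA, whereas in polysome-bound RNA the Dark library numbered 1 lay above 2 of the L4h libraries. Its interaction was -0.69 with an SE of 1.2, and -0.68, 0.34 and -1.3 by number. RBCS1B, a second small subunit, had an interaction of -1.87 (SE 1.4) and -2.12, -0.12 and -1.94 by number. The small subunit genes are near-identical in sequence, and reads may be split among them. CP12-1 was chosen after its values were seen as the exception of the list. It encodes a small regulator that binds 2 enzymes of the cycle in the dark, and its interaction was 1.19 (SE 0.59), with 1.73, 1.35 and 0.2 by number.

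Photorespiration and nitrogen assimilation, which recover carbon and ammonia lost to the oxygenase activity of Rubisco came next. The 13 genes had a median of -0.59, with -0.48, -0.35 and -0.99 by number. No member was above 0 in all 3 numbers and 7 were below. GLDP1, the glycine decarboxylase P-protein of photorespiration, had 1540, 840 and 636 CPM in WT_L4h_PL, against 192, 54.2 and 45 CPM in WT_Dark_PL. It had 2860, 1640 and 2070 CPM in WT_L4h, against 100 CPM, 78.3 CPM and 69.7 CPM in WT_Dark. L4h lay above Dark without overlap in both kinds of RNA, and the rise was 3.37 in polysome-bound and 4.73 in total RNA on the log2 scale (adjusted p 0.0031 and 0.00063, edgeR). The difference of these rises, the interaction, was -1.36 with an SE of 0.76, and -1.84, -0.44 and -1.07 by number. GOX1 of the same list was at -0.84 (SE 1.2), with -0.76, 0.13 and -1.09 by number.

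The light reactions differed in size of shift by number. For 30 photosystem and electron transport subunits the median was -0.53, with -0.19, -0.04 and -1.04 in numbers 1, 2 and 3. All 30 were below 0 in number 3. In all 3 numbers 14 of them (46.7%) were below 0 and none above, against 14.8% and 17.5% of all genes. For the 21 light-harvesting antenna proteins, which hold the chlorophyll that captures light, the median was -0.27, with 0.0, 0.22 and -0.97. Of these, 5 (23.8%) were below 0 in all 3 numbers and none above. In number 3, 20 of the 21 antenna genes lay below 0, against 10 and 9 of 21 in numbers 1 and 2. LHCA1 encodes a chlorophyll-binding protein of photosystem I and had a light effect of 4.84 in polysome-bound and 5.54 in total RNA (log2, adjusted p 0.018 and 0.011). It had 4920, 1330 and 1300 CPM in WT_L4h_PL and 231, 17.3 and 15.2 CPM in WT_Dark_PL. In total RNA it had 1820, 1020 and 1810 CPM in WT_L4h and 70.4, 15.1 and 14.4 CPM in WT_Dark. All L4h libraries exceeded all Dark libraries, and the interaction was -0.7 with an SE of 1.4. PSAD1, a stromal subunit of photosystem I, had an interaction of -0.47 (SE 1.2), with 0.1, -0.36 and -1.36 by number.

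Chlorophyll and tetrapyrrole synthesis had a median of -0.5 over 22 genes, with -0.28, -0.23 and -1.09 by number. Below 0 in all 3 numbers were 14 genes and above 0 none, and all 22 were below 0 in number 3. HEMA1, the glutamyl-tRNA reductase that starts the pathway, was at 0.01 (SE 0.59), with a rise of 2.32 in both polysome-bound and total RNA. GSA1, the aminotransferase of the next step, was at -0.24 (SE 0.29). Taken from the list after their values were seen, PORB (protochlorophyllide oxidoreductase B) was at -1.11 (SE 0.75), and GUN4, which binds the pathway's porphyrins and activates the magnesium chelatase, at -1.06 (SE 1.1). The photoprotection and antioxidant list had a median of -0.25 over 20 genes, with -0.17, -0.09 and -0.46 by number. Of these, 9 (45.0%) were below 0 in all 3 numbers and 1 above, against 14.8% and 17.5% of all genes. ELIP1, an early light-induced protein of the thylakoid, was at -2.07 (SE 1.3), with -1.27, 0.21 and -0.48 by number. In WT_Dark_PL it had 40.3, 1.99 and 3.09 CPM, so the mean of that group rested mostly on number 1.

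Plastid ribosomal proteins, which are coded in the nucleus and build the ribosomes that translate plastid messages, had a median of -0.47 over 39 genes. By number it was -0.36, -0.05 and -0.94, with 29, 23 and all 39 genes below 0. In all 3 numbers 22 genes were below 0 and none above. In polysome-bound RNA 2 of the 39 rose with light (against 9.36% of all genes) and in total RNA 14 (against 10.7%), with median light effects of 1.37 and 1.78. With the replicate number as a block, 28 (71.8%) rose in polysome-bound and 38 (97.4%) in total RNA, against 15.8% and 16.2% of all genes. RPS1, a protein of the small plastid subunit, had 579, 167 and 138 CPM in WT_L4h_PL and 276, 75.6 and 66.1 CPM in WT_Dark_PL. In total RNA it had 227, 160 and 247 CPM in WT_L4h and 73.5, 52.1 and 52.5 CPM in WT_Dark. Within each number the L4h library lay above the Dark library in both kinds of RNA, by a larger factor in total RNA. Its interaction was -0.75 (SE 0.86), with -0.56, -0.48 and -1.17 by number. EMB3113, a second protein of the small subunit, was at -0.54 (SE 0.78), with -0.36, -0.24 and -1.01.

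In a fit chosen after seeing the data, with the block set within each kind of RNA so that light was compared inside numbered pairs, still 0 genes were called higher and 0 lower. At an unadjusted p under 0.05 it held 666 genes with a higher and 502 with a lower interaction (3.04% and 2.29% of all genes). Of the plastid ribosomal proteins 17 of 39 were among the lower (43.6%) and 0 among the higher. For chlorophyll synthesis the count of lower genes was 7 of 22, for the Calvin cycle 5 of 20 and for photorespiration 3 of 13. Photosystem subunits gave 1 of 30 and antenna proteins 1 of 21. Members of a list come from the same 12 libraries and move together, so these counts are a description.

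The medians of these lists depended on single libraries that break the pairing. Without WT_L4h_PL replicate 1 the Calvin cycle median was -1.69, and without WT_Dark_PL replicate 1 it was 0.36. The same libraries gave -1.58 and 1.08 for photosystem subunits, -1.56 and 1.64 for antenna proteins, and -1.42 and 0.43 for plastid ribosomal proteins. They gave -1.25 and 0.3 for photorespiration, -1.16 and 0.12 for chlorophyll synthesis, and -0.82 and 0.16 for photoprotection. With a whole number left out, which keeps the pairs, the medians stayed below 0. The Calvin cycle gave -0.59, -0.92 and -0.48 without numbers 1, 2 and 3, plastid ribosomal proteins -0.48, -0.63 and -0.3, and photosystem subunits -0.59, -0.62 and -0.2. Chlorophyll synthesis gave -0.71, -0.67 and -0.23, photorespiration -0.59, -0.71 and -0.42 and antenna proteins -0.28, -0.34 and -0.16. With all libraries kept and other tools, scalings, filters or blocks, the Calvin cycle median ran from -0.8 to -0.69 and that of plastid ribosomal proteins from -0.52 to -0.46.

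The cytosolic ribosome gave the opposite example, a large and coordinated list with no common direction. Its 78 tested 40S genes had a median of 0.07 and its 113 tested 60S genes of 0.11. By number the 40S median was 0.41, 0.12 and -0.51, and the 60S median 0.39, 0.14 and -0.5. In number 1, 70 of the 78 40S genes were above 0 and in number 3, 72 were below 0. For the 60S, 102 of 113 were above 0 in number 1 and 105 below 0 in number 3. The number 3 value of these lists was thus of the same sign as in the plastid lists, and the number 1 value of the other sign. Without replicate 1, 2 and 3 in turn, the 40S median was -0.22, -0.01 and 0.37. Without WT_L4h_PL replicate 1 the 40S and 60S medians were -0.56 and -0.46, and without WT_L4h_PL replicate 2 they were 0.3 and 0.33. With all libraries kept and other tools, scalings, filters or blocks, it ran from -0.06 to 0.07 and the 60S median from -0.04 to 0.11, so the sign of both depends on the setting. Polysome-bound over total RNA stood at a median of 1.66 in L4h and 1.61 in Dark for the 40S list, and at 1.75 and 1.67 for the 60S list (log2).

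P40, the laminin receptor-like protein SA of the 40S subunit, had 553, 225 and 326 CPM in WT_L4h_PL and 442, 279 and 459 CPM in WT_Dark_PL. It had 154, 138 and 182 CPM in WT_L4h and 155, 159 and 158 CPM in WT_Dark. L4h and Dark overlapped in both kinds of RNA, and the interaction was -0.1 with an SE of 0.45.

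The telo-box is a short element found near the start of many plant genes of the translation machinery. Its core TAGGGTTT was searched on both strands (AAACCCTA when read on the other) from 250 bases before to 50 bases after the annotated start, in the RefSeq annotation of TAIR10.1. It was present in 5.41% of 21070 protein-coding genes tested, in 38 of 78 40S genes (48.7%) and in 54 of 113 60S genes (47.8%). Among plastid ribosomal proteins it was in 5 of 39 (12.8%), and in the Calvin cycle in 0 of 20. Stretches of 30 bases around the core are shown for the first 3 matching genes of each cytosolic list. These genes share the element and had fitted interactions near 0, with values by number of both signs. Capitals mark the core, and all are written 5′ to 3′ on the strand of the gene.
P40: attttgcaaatTAGGGTTTtgcttgatata
AT1G59359: cagactttcgaAAACCCTAatcttatgctc
AT2G41840: aaggcctttagAAACCCTAaaaatccttat
AT3G09630: taaccctaacgAAACCCTAgcatatattag
ATL5: cacgaggagttttcTAGGGTTTtgtcttat
RPL5B: caagagaactcTAGGGTTTtgtcttataag

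The P40 stretch lies on the minus strand at chr1:27244956-27244985, with the core starting 43 bases before the annotated start. ATL5 and RPL5B, both ribosomal protein L5, carry the core 34 and 3 bases after the start, at chr3:9271416-9271445 (minus strand) and chr5:15903271-15903300 (plus strand). AT1G59359 is 1 of several near-identical copies of its gene, between which reads may be split. Interactions of the 6 genes ran from -0.25 (AT3G09630, SE 0.39) to 0.06 (AT2G41840, SE 0.55). By number they ran from 0.13 to 0.41 in number 1, -0.11 to 0.1 in number 2 and -0.88 to -0.59 in number 3. Genes with the core had a median interaction of 0.01 over all protein-coding genes tested, the same as genes without it. By number it was 0.11, 0.03 and -0.11 with the core and 0.0, 0.02 and 0.03 without. Within the 40S list, genes with the core had 0.55, 0.14 and -0.54 and those without 0.31, 0.11 and -0.5. The presence of the core is a description of these windows and no evidence of a binding site.

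Regulators of light responses were described by a pair of lists. Photoreceptors, PIFs and repressors of light signalling stood at -0.04 over 21 genes, with 0.04, -0.06 and -0.14 by number. In all 3 numbers 8 of them (38.1%) were below 0 and 1 above, against 14.8% and 17.5% of all genes. PHYA, the receptor of far-red light, fell in light by 1.82 in polysome-bound RNA and by 1.69 in total RNA (log2, adjusted p 0.0063 and 0.0082). It had 210, 181 and 209 CPM in WT_L4h_PL against 944, 609 and 560 CPM in WT_Dark_PL, and 423, 244 and 274 CPM in WT_L4h against 1540, 799 and 707 CPM in WT_Dark. L4h lay under Dark without overlap in both, and the interaction was -0.12 with an SE of 0.49. HY5, the bZIP factor that promotes photomorphogenesis, rose by 3.12 in polysome-bound and 2.78 in total RNA and had an interaction of 0.35 (SE 0.53). HYH, like HY5 on the list of light-induced regulators, was at -0.66 (SE 1.4), with -0.2, 0.21 and 1.39 by number. In WT_Dark_PL it had 7.69, 0.701 and 0.195 CPM, so the mean of that group rested mostly on number 1. The light-induced regulators as a list had a median of -0.14 over 19 genes, with -0.17, 0.09 and 0.53 by number. Its sign turned with the libraries used, with 0.67 without WT_Dark_PL replicate 1, -0.59 without WT_Dark replicate 1 and 0.16 without all libraries numbered 1.

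All 12 genes that PIF factors activate in shade and darkness fell with light in both kinds of RNA. Of all genes, 7.0% fell in polysome-bound and 7.79% in total RNA. The median light effect of the 12 was -2.69 in polysome-bound and -2.75 in total RNA. Their median interaction was -0.02, with -0.11, 0.21 and -0.02 by number. Fitted interactions of the 12 ran from -0.21 to 0.25. ATHB2, a homeodomain factor of shade avoidance, had 15.5, 17.3 and 16.6 CPM in WT_L4h_PL against 198, 122 and 95.7 CPM in WT_Dark_PL. It had 5.06, 8.91 and 7.4 CPM in WT_L4h against 67.5, 73.6 and 72.8 CPM in WT_Dark, and its interaction was 0.25 (SE 0.38). Of 26 auxin-responsive genes of the Aux/IAA, SAUR and GH3 families, 21 fell in each kind of RNA, against 7.0% and 7.79% of all genes. The median interaction of the 26 was 0.09, with -0.29, 0.14 and 0.56 by number, so that number 1 was on the other side of 0. It was -0.1 without WT_L4h_PL replicate 1 and 0.31 without WT_L4h replicate 1.

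Clock genes were the list of a plant process with medians above 0 in every number. The 20 genes had a median of 0.24, with 0.16, 0.17 and 0.36 by number, 18 fitted values above 0, 6 genes above 0 in all 3 numbers and none below. Leaving out WT_Dark replicate 1 gave -0.06. CCA1, a morning-expressed MYB factor of the core loop, was at 0.06 (SE 0.97), with 0.17, 0.08 and -0.24 by number. LHY, its close relative, was at 0.39 (SE 0.52), with 1.63, 0.25 and -0.59. PRR9, a repressor of both that follows them in the morning, had the highest value of the list at 1.15 (SE 0.77), with 0.41, 0.24 and 2.01 by number, and is named after its value was seen. The other lists with medians above 0 in every number were the heat shock and ER chaperones at 0.07 over 14 genes and the transcripts with conserved upstream open reading frames at 0.11 over 9. Neither kept its sign, with -0.13 for the chaperones without WT_L4h_PL replicate 1 and -0.11 for the upstream reading frames without WT_Dark_PL replicate 1. Clock transcripts also change with the time of day, and L4h was taken 4 h after Dark. The part of this in the interaction was not tested.

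Transcripts of the flavonoid pathway, which makes sunscreen pigments, were among the most strongly light-induced. The median light effect over 21 phenylpropanoid and flavonoid genes was 4.95 in polysome-bound and 5.43 in total RNA. Of these, 14 and 16 rose, against 9.36% and 10.7% of all genes. The median interaction of the list was -0.46, with -0.12, -0.11 and -0.46 by number, and 9 of the 21 were below 0 in all 3 numbers. PAL1, the phenylalanine ammonia-lyase at the entry of the pathway, was at -0.3 (SE 0.65) and PAL2 at -0.4 (SE 0.46). Several later enzymes had almost no reads in Dark, which makes their fitted values imprecise.

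Other processes are given mainly by their medians. Cell wall loosening and cellulose synthesis stood at -0.19 over 26 genes, P-body and mRNA decay at -0.13 over 14, and ethylene and apical hook at -0.12 over 18. In these lists 7 (26.9%), 4 (28.6%) and 7 (38.9%) genes were below 0 in all 3 numbers, against 14.8% of all genes. Above 0 in all 3 numbers were 1, 3 and 0 of their genes, against 17.5% of all genes. Cytosolic translation factors stood at -0.05 over 31 genes with 0.2, -0.06 and -0.38 by number. The glyoxylate cycle and fatty acid breakdown list was at 0.0 over 18 genes, the cell cycle at 0.02 over 8, and reference genes at -0.06 over 10. Sugar starvation genes were at -0.06 over 14, but all 14 were above 0 in number 3 and 12 below 0 in number 1. Their median was -0.43 without WT_L4h replicate 3 and 0.54 without WT_L4h replicate 1. Wound, defence and stress genes were at 0.41 over 15, with 0.42, -0.06 and 0.95 by number, and all 15 were above 0 in number 3.

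Among the 34 protein families the medians were small, and some families had more members of 1 sign in all 3 numbers than the 17.5% above and 14.8% below 0 of all genes. These were picked out after their values were seen. WRKY factors, known from defence and senescence, had a median of 0.18 over 60 genes, with 0.13, 0.07 and 0.29 by number, and 20 of them (33.3%) were above 0 in all 3. RNA-binding RRM proteins had 0.1 over 142 genes, with 0.1, 0.09 and 0.06 by number, and 43 (30.3%) above 0 in all 3. F-box proteins, which choose targets for ubiquitination, had 0.11 over 210 genes, with 52 (24.8%) above and 11 (5.24%) below 0 in all 3. On the other side, aminoacyl-tRNA synthetases, which load tRNAs, had -0.11 over 54 genes, with 17 (31.5%) below 0 in all 3. Receptor-like and leucine-rich repeat kinases had -0.05 over 253 genes, with 61 (24.1%) below 0 in all 3. SAUR-like proteins had a median of 0.01 over 70 genes that hid -0.66, 0.16 and 0.26 by number.

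Markers of other tissue and of seed stores also differed by number. Root markers had a median of 0.96 over 10 genes, with -0.04, 0.37 and 0.97 by number, on very low levels. It was 0.03 when only genes of at least 1 RPKM in 3 libraries were kept, 0.07 with limma on log2(RPKM + 1), and 0.07 without WT_Dark replicate 3. Their sum was 81 to 106 CPM in WT_L4h_PL, 88.3 to 145 CPM in WT_Dark_PL, 94.6 to 97.7 CPM in WT_L4h and 102 to 129 CPM in WT_Dark. Most of that came from SHR and SCR, which the shoot also expresses, while the root-hair expansin EXPA7 had between 0 and 0.233 CPM in L4h_PL and Dark_PL libraries. Seed storage, oleosin and LEA genes had 0.01, -0.58 and 3.17 by number over 13 genes. They summed to 323, 95.3 and 141 CPM in WT_L4h_PL, 685, 55.9 and 154 CPM in WT_Dark_PL, 122, 43.9 and 42.6 CPM in WT_L4h and 217, 24.5 and 411 CPM in WT_Dark. The WT_Dark library numbered 3 was the highest of its group. The part of seed tissue in the interaction was not tested.

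The genes named for their own interaction are 12 in each direction, and none passed the test. They were taken by the smallest unadjusted p among 4784 genes with at least 10 CPM in a group and 1 sign in all 3 numbers (34.8% of the genes of at least 10 CPM), and their p-values ran from 0.0028 to 0.046. The selection by sign and p fixes their direction, so the values are given as a description.

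AT2G41750, which codes for a DTW domain protein on chromosome 2, had the smallest p among genes with a higher interaction. It had 4.78, 5.44 and 4.67 CPM in WT_L4h_PL and 7.38, 9.31 and 6.8 CPM in WT_Dark_PL. It had 3.96, 6.44 and 6.05 CPM in WT_L4h and 17.7, 23.6 and 19.6 CPM in WT_Dark. Total RNA fell by 1.89 (log2, adjusted p 0.00046) while polysome-bound RNA was 0.66 lower (adjusted p 0.074), and the interaction was 1.23 with an SE of 0.32. By number it was 1.53, 1.1 and 1.15. The gene overlaps AT2G41760, and without strand information reads cannot be told apart there.

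AT1G10660, an uncharacterized protein, showed the reverse arrangement of changes. Polysome-bound RNA held 50.6, 53.8 and 44.9 CPM in WT_L4h_PL and 31.6, 30.6 and 26.2 CPM in WT_Dark_PL. Total RNA held 52.3, 50.9 and 46.2 CPM in WT_L4h and 55.5, 48.4 and 49.3 CPM in WT_Dark. Polysome-bound RNA rose by 0.76 (adjusted p 0.0071), the total RNA of L4h and Dark overlapped at a difference of -0.04, and the interaction was 0.79 (SE 0.22).

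VTC5, a GDP-L-galactose phosphorylase of ascorbate synthesis, rose in both kinds of RNA. It had 86.7, 90.6 and 80.2 CPM in WT_L4h_PL against 23.9, 25 and 26.6 CPM in WT_Dark_PL. It had 54.3, 67 and 56.1 CPM in WT_L4h against 23.9, 26.1 and 25.4 CPM in WT_Dark. The rises were 1.77 and 1.23 (adjusted p 7.4e-05 and 0.00042), and the interaction was 0.54 (SE 0.21), with 0.67, 0.5 and 0.45 by number. ELF4-L4, a relative of the clock protein ELF4, was at 0.78 (SE 0.31). TPX2, a thioredoxin-dependent peroxidase, had the highest value of the 12 at 2.04 (SE 0.75), with 1.83, 1.27 and 3.55 by number, and both overlaps another annotated locus and has a close copy in the genome. The remaining genes of this direction were TTN5, AT2G45250, AT4G38932, AT2G39000, TOPP1, AT3G58670 and AT1G03940, between 0.62 and 1.37. Of these, TTN5 and AT1G03940 overlap other annotated loci.

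**Figure D4:**
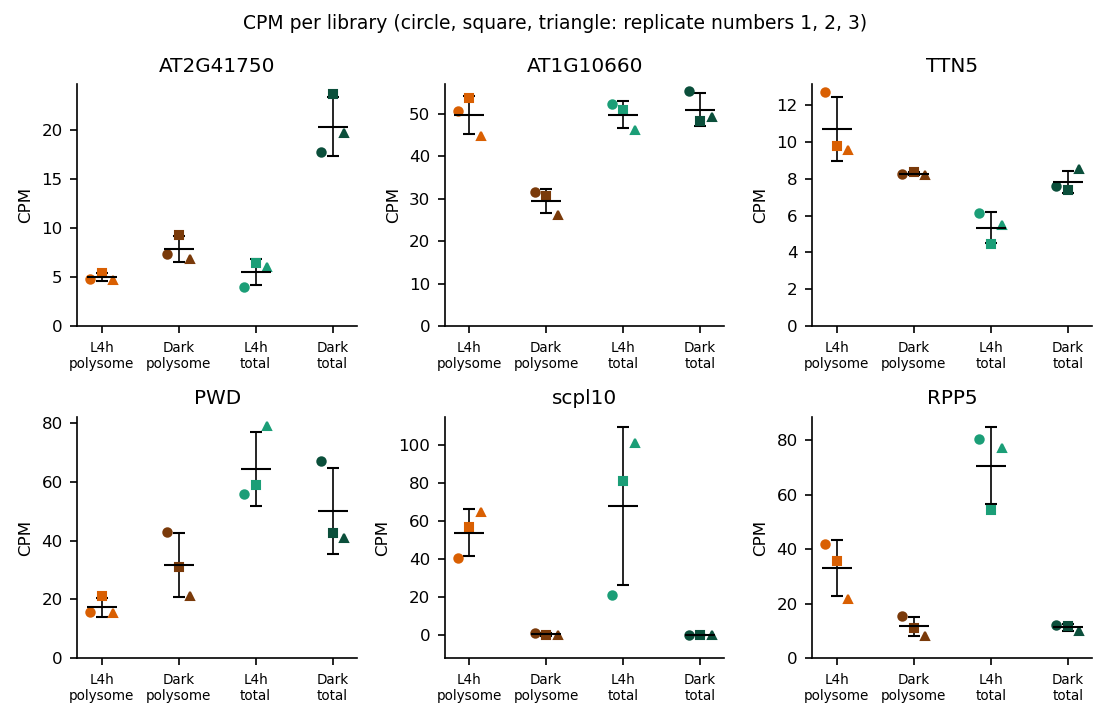
CPM is plotted for each library of the 3 genes of smallest p in each direction, with groups from left to right as WT_L4h_PL, WT_Dark_PL, WT_L4h and WT_Dark, markers for the replicate numbers and bars for the mean and SD (n = 3). In AT2G41750 the WT_Dark libraries stand at 17.7 to 23.6 CPM above all others, and in PWD the WT_L4h_PL libraries lie lowest at 15.3 to 21 CPM.

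PWD, the phosphoglucan, water dikinase that opens starch granules for breakdown in the plastid, had the smallest p among genes with a lower interaction. It had 15.6, 21 and 15.3 CPM in WT_L4h_PL and 42.9, 31 and 21.3 CPM in WT_Dark_PL. Total RNA held 55.7, 58.8 and 78.8 CPM in WT_L4h and 66.9, 42.4 and 40.9 CPM in WT_Dark. The polysome-bound groups did not overlap, the total groups did, and the interaction was -1.24 (SE 0.41), with -1.19, -1.03 and -1.42 by number. It lies on the plus strand of chromosome 5 and overlaps no other annotated gene.

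TIC110, a subunit of the protein import machinery of the inner plastid envelope, had 79.6, 70.2 and 51.6 CPM in WT_L4h_PL and 73, 68.9 and 59.2 CPM in WT_Dark_PL. It had 202, 147 and 170 CPM in WT_L4h and 122, 103 and 101 CPM in WT_Dark. Total RNA rose by 0.67 (adjusted p 0.045), polysome-bound RNA differed by 0.0 (adjusted p 1.0), and the interaction was -0.67 (SE 0.29). The DEAD-box RNA helicase RH3, listed as emb1138, acts on plastid RNA and had 221, 158 and 141 CPM in WT_L4h_PL and 176, 78.6 and 88.3 CPM in WT_Dark_PL. It had 463, 273 and 394 CPM in WT_L4h and 139, 95.3 and 90 CPM in WT_Dark, with an interaction of -1.2 (SE 0.49) and an overlap with a further annotated locus. EMB1270, a pentatricopeptide repeat protein, was at -0.91 (SE 0.39).

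RPP5, a TIR-NBS-LRR resistance protein from a cluster of similar genes, rose by 1.51 in polysome-bound and 2.64 in total RNA, with an interaction of -1.13 (SE 0.41). AT1G31850, a methyltransferase, fell by 1.83 and 0.99 (adjusted p 0.0006 and 0.014), with an interaction of -0.84 (SE 0.33). CWLP, a linker of cell wall and plasma membrane, was at -0.95 (SE 0.4), AT1G54220, a dihydrolipoamide acetyltransferase, at -0.61 (SE 0.24) and AT3G53560 at -0.67 (SE 0.3). RPP5, AT1G31850, CWLP, AT3G53560, EMB1270 and scpl10 overlap other annotated loci, where reads may not be told apart. For 3 genes the fitted value rested on few reads in Dark. These are scpl10 with 100 and 4 reads in all of WT_Dark_PL and of WT_Dark, AT2G15020 with 8 and 0, and AT3G51238 with 137 and 43. In WT_Dark_PL scpl10 had 1.35, 0.05 and 0.0608 CPM. Its interaction of -5.29 became -2.28 without WT_Dark_PL replicate 1. AT3G51238 was at -11.97, -3.88 and -3.62 by number, with 0.0 CPM in WT_L4h_PL replicate 1. AT3G51238 is a non-coding transcript that overlaps AT3G51240, the flavanone 3-hydroxylase gene.

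The interaction was also read against gene length and gene type. Over 5 length classes of 4372 to 4401 genes, from the shortest to the longest, its median was 0.11, 0.07, 0.02, -0.01 and -0.06. In number 2 it was 0.15 in the shortest and -0.03 in the longest class, in number 3 it was 0.19 and -0.08, and in number 1 -0.01 and -0.06. Polysome-bound over total RNA itself stood at 1.08 in L4h and 0.94 in Dark for the shortest class (0.064 to 0.912 kb), and at -0.67 and -0.6 for the longest (2.25 to 16.3 kb). Short genes were thus the more polysome-associated on this scale in both conditions, and the spread between classes was slightly wider in L4h.

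Non-coding gene types had medians above the 0.01 of protein-coding genes. The 49 microRNA genes, read as precursor transcripts, had a median of 0.34, with 0.35, 0.57 and 0.34 by number, and 17 of them (34.7%) were above 0 in all 3 numbers. Their median association was -1.95 in L4h and -2.01 in Dark, so they remained poor in polysome-bound RNA in both. Their levels were low, with a median of 0.601 CPM in the highest group. The 151 lncRNA genes had 0.13 (0.01, 0.16 and 0.32 by number) and 111 other ncRNA genes 0.27 (0.04, 0.33 and 0.54). Their median levels in the highest group were 2.41 and 3.82 CPM, against 19.9 CPM for protein-coding genes. MIR163, the precursor of a microRNA that acts on methyltransferase transcripts, had 16.3, 26.4 and 24.9 CPM in WT_L4h_PL, against 0.255, 0.06 and 0.073 CPM in WT_Dark_PL. It had 42.7, 37.8 and 34.8 CPM in WT_L4h, against 0.0259, 0.214 and 0.0528 CPM in WT_Dark. L4h lay above Dark without overlap in both kinds of RNA, and its interaction was -1.05 (SE 0.86), with -3.89, 0.99 and -0.82 by number, so that number 2 had the other sign. It was named after its value was seen, as 1 of the 6 most abundant microRNA genes. Interactions of these 6 were -1.05 (MIR163), -0.34 (MIR167d), -0.32 (MIR156f), -0.03 (MIR156c), 0.05 (MIR822) and 0.77 (MIR414).

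In the last description, added after seeing the data, genes were grouped by the light effect in total RNA of the other 2 numbers, so that the group and the value share no library. Genes at 2 or more log2 units up had a median interaction of -0.1, -0.01 and -0.6 in numbers 1, 2 and 3, over 1374, 1263 and 1065 genes. Genes at 2 or more units down had -0.62, 0.05 and 0.23, over 934, 738 and 529 genes. Genes within 1 unit had 0.03, 0.02 and 0.05. Number 3 thus had smaller light effects in polysome-bound than in total RNA in both directions, number 1 had larger falls, and number 2 differed little.

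**Figure D5:**
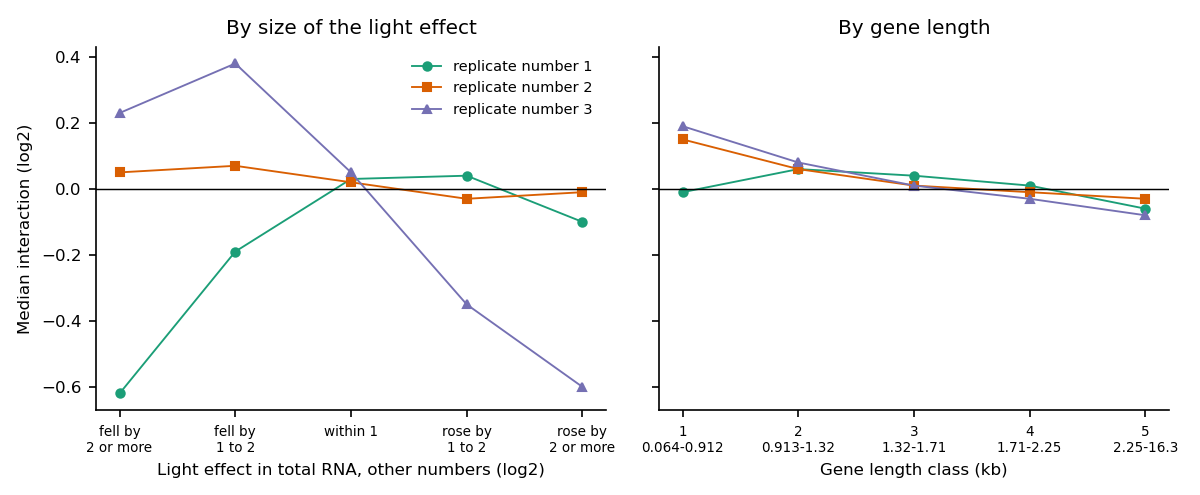
The median interaction (log2, vertical axis) is plotted for genes grouped by their light effect in total RNA of the other 2 numbers (left) and for 5 classes of gene length (right), with 1 line for each replicate number. On the left, number 3 runs to -0.6 at the induced end and number 1 to -0.62 at the repressed end, while number 2 stays within 0.07 of 0. On the right the lines of numbers 2 and 3 run down from 0.15 and 0.19 to -0.03 and -0.08.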

How the data were processed

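Each deposited library table lists 33323 genes. The authors' reads per gene are deposited estimated counts with no normalization; 84.4% to 87.2% of genes in a library had whole values (tolerance 1e-06), and all were rounded before the fits. The RPKM column, also deposited by the authors, served alternatives here. The submitters' processing notes name the build TAIR10; kit, strand, aligner and counter are not given in the sources used here.

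Counts were fitted with edgeR 4.0.16 in R 4.3.3 (TMM, filterByExpr minimum 10, quasi-likelihood F test, Benjamini-Hochberg over 21924 genes). SE is the log2 value over the root of F, and values by number use log2 CPM with a prior count of 2. CPM was scaled by TMM. Alternatives used DESeq2 1.42.0 and limma 3.58.1. The interaction fit was tested on simulated data.

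RefSeq (TAIR10.1) gave names to 32835 genes, sequences and coordinates. Of 717 entries in 28 lists 685 carried the expected name in that annotation, and 675 were tested; 34 families came from product names. Members and lists were chosen with earlier results of these data known. Named genes are, in each direction, the 12 of largest interaction past the threshold with 10 CPM and 1 sign in 3 numbers. Places left were filled by smallest p. Of the first 2 members of a list, both, 1 or none are named. The main fit had no block, so its SE and p-values take no account of the numbering. Same-numbered libraries were taken as pairs in the values by number and in the fits with a block. All correlations of their deviations exceeded 0.1. L4h_PL with Dark_PL gave 0.57 to 0.7, L4h with Dark 0.39 to 0.6, L4h_PL with L4h 0.12 to 0.39, and Dark_PL with Dark 0.28 to 0.48. Some differently numbered libraries also exceeded 0.1: L4h_PL 3 with L4h 2 at 0.37, above the 0.12 of its own number, Dark_PL 3 with Dark 2 at 0.27, L4h 2 with Dark 3 at 0.21, L4h 3 with Dark 2 at 0.2 and L4h_PL 3 with Dark_PL 2 at 0.11.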

Additional observations from a re-analysis of the deposited data

Results flagged for a closer look

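In 3 named genes every L4h library lay above every Dark library in polysome-bound RNA while every L4h library lay below every Dark library in total RNA. For TTN5, an ADP-ribosylation factor, the interaction was 0.92 (SE 0.27), with 12.7, 9.78 and 9.58 CPM in WT_L4h_PL, 8.28, 8.37 and 8.18 CPM in WT_Dark_PL, 6.13, 4.44 and 5.46 CPM in WT_L4h and 7.6, 7.37 and 8.51 CPM in WT_Dark. TTN5 overlaps AT2G18400, and without strand information reads cannot be told apart there. AT2G45250, a hemolysin-III-like membrane protein, had an interaction of 0.76 (SE 0.23). TOPP1, a type one protein phosphatase, had 0.81 (SE 0.28). The difference was tested by the interaction, and none of the 3 passed (adjusted p of 1.0 after rounding). This arrangement was found in 5 of 21924 genes (0.0228%), and its reverse in 3 (0.0137%). Groups of 3 libraries are too small for a test of single outlying libraries.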

How the results depend on the processing

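The count of called genes stayed at 0 in both directions with RLE scaling, without the filter on low counts, with the RPKM filter, with a minimum of 1 log2 unit, with limma on log2(RPKM + 1), with the replicate block and with the block within condition, and with both blocks within kind of RNA, chosen after seeing the data. The replicate block left the calls at 0, with 308 genes at an unadjusted p under 0.05 against 115 without it, and the block within kind of RNA had 1168. DESeq2 called 2 genes higher (EXO70H6, AT2G23672) and 1 lower (RBL5), and limma on log2(RPKM + 0.1) called 1 higher (PTAC18), all named after their values were seen. EXO70H6, AT2G23672 and PTAC18 had groups without a read. With libraries or numbers left out, 0 to 1 genes were called higher and 0 to 1 lower: SAE1B lower without WT_L4h_PL replicate 3, MYB106 higher without WT_Dark_PL replicate 1, and PIA1 higher and AT3G13700 lower without replicate 1. With the block, genes with a light effect numbered 3459 higher and 2671 lower in polysome-bound RNA, and 3541 higher and 3052 lower in total RNA. The 24 named genes were chosen by sign and p in these same libraries, which all but fixes their direction. That they kept it in all 25 alternatives is therefore no support for it. None passed in any of them (smallest adjusted p 0.65). Of the 28 list medians, 24 took both signs when single libraries were left out and 12 when whole numbers were. No gene was called, so no split of the telo-box or of classes of shift by called genes was made.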
